A study of Mus musculus with 16 samples.

Results

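Rac GTPases are molecular switches that start the assembly of actin filaments at the cell membrane. In blood cells this switch is run by proteins that most other cells lack: the GTPase Rac2 and its activators Vav1 and Dock2. Arhgdib serves as a cytosolic carrier of Rac2. Downstream, Was (the Wiskott-Aldrich syndrome protein), Hcls1, Coro1a and Lcp1 nucleate, stabilise or bundle actin filaments, while Plek and Fermt3 act at the membrane of platelets and leukocytes, Fermt3 by switching on integrins. Most of these proteins have a widely expressed relative, such as Rac1, Vav2 or Fermt2, that serves the same step in endothelial and other cells.

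These 10 genes were followed in sorted mouse cells at E11.5 on 16 Agilent 1-colour arrays, with every probe that the array design names for them. They were 10 of 24588 genes tested and had 14 of 55681 probes, and all 14 probes passed the filter on dim signal. All sorted cells carried VE-cadherin, the junction protein of endothelium. They were split into CD45+ and CD45- cells by the leukocyte surface protein CD45 (gene Ptprc), and came from the embryo proper or the yolk sac. In Tie-2-Etv2 animals an Etv2 transgene, coding for an ETS-family transcription factor, is turned on by a Tie-2 Cre transgene. Tie-2 Cre is known to act in endothelial cells and in the blood cells that descend from them, so both gates can carry the transgene. Control animals are labelled only as controls, and the labels do not say whether they carried either transgene alone. All animals were of a mixed strain background, B6/CBA and others. The 8 groups were Tie-2-Etv2 and control cells of each tissue and gate, with 2 arrays each, and the titles of the Tie-2-Etv2 embryo CD45- samples name only Tie-2.

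Of the probes on an array, 50.64% to 59.9% had signal well above background, and saturation affected 0 spots. Nothing in the labels ties samples to separate litters or animals, so p-values measure the spread between these samples only. The embryo arrays lay on 1 slide and the yolk sac arrays on another, so tissue and slide cannot be told apart, whereas Tie-2-Etv2 and control cells shared a slide. Etv2 itself, a check of the labels, had levels of 3.90 and 3.26 in Tie-2-Etv2 yolk sac CD45- cells, against -2.60 and -2.95 in control ones, and a difference of 6.36 ± 0.96 (adjusted p = 0.000508). In embryo CD45- cells its difference was 2.50 ± 0.96 (adjusted p = 0.573), with both Tie-2-Etv2 arrays above both control arrays. That standard error pools the spread of all groups. The standard deviation of Etv2 was 2.91 in control yolk sac CD45+ cells and 0.32 in Tie-2-Etv2 embryo CD45- cells. A second Etv2 probe had a mean of 2.02 in Tie-2-Etv2 and -0.9 in control embryo CD45- cells. No label places the Etv2 probes inside or outside the transgene. The endothelial marker list had a summed level of 660 to 682 in Tie-2-Etv2 and of 1030 to 1150 in control yolk sac CD45- cells, and of 340 to 348 in Tie-2-Etv2 and of 53.4 to 55.3 in control yolk sac CD45+ cells.

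A level is the log2 of a probe's processed intensity minus the 75th percentile of its array, so 0 stands for a probe as bright as that percentile. Levels are compared for the same probe only. A difference is given with the standard error of 1 limma fit over all arrays. An adjusted p is Benjamini-Hochberg over all genes, and a gene rose or fell where it was under 0.05.

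In CD45- cells of Tie-2-Etv2 animals most of the machinery rose, in both tissues. In embryo CD45- cells 8 of the 10 genes rose and 0 fell, where 1.29% of all genes were called in either direction. Their median difference was 4.29 on the log2 scale, against -0.0262 over all genes tested, and stayed at 4.29 with Dock2, dim in these control cells, at its lower bound. In the yolk sac 9 of 10 rose and 0 fell, where 41.8% of all genes were called, and the median difference was 6.34, against 0.175 over all genes. In CD45+ cells the genotypes differed little: limma called 0 of 10 in the embryo, where 1 had an unadjusted p under 0.05 and 3.01% of all genes were called, and 2 of 10 rose in the yolk sac, where 32.5% were called. In bulk samples, fewer cells of a type and less RNA per cell cannot be told apart.

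**Figure D1:**
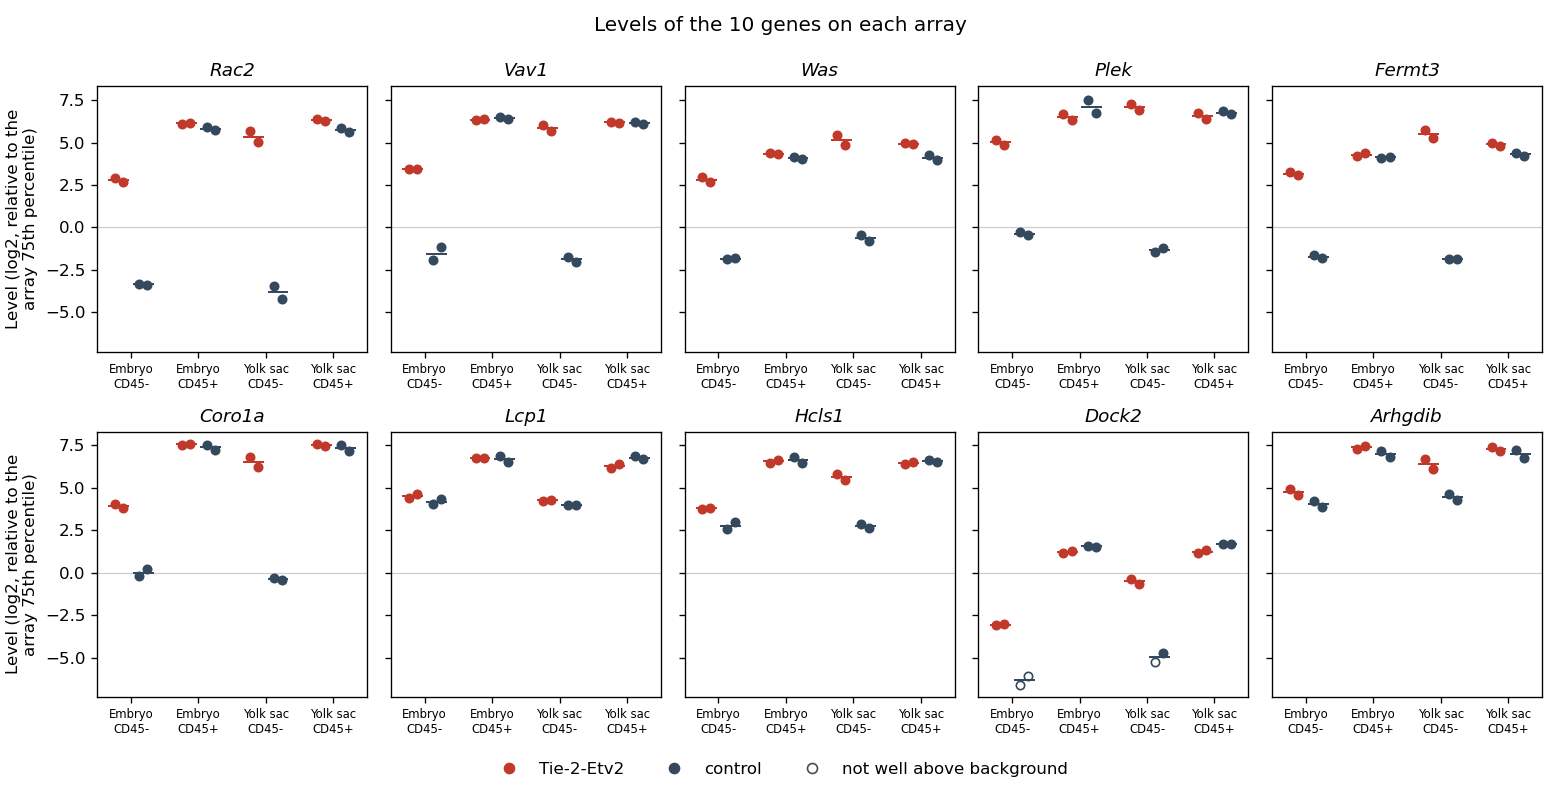
Each panel plots 1 gene, with the level on the y axis (log2, relative to the array's 75th percentile) and the 4 cell populations on the x axis. Points are arrays, bars are means of 2 arrays, red is Tie-2-Etv2 and dark blue is control, and open points were not well above background. Rac2, at the top left, had levels of 5.65 and 5.06 in Tie-2-Etv2 yolk sac CD45- cells and of -3.43 and -4.23 in control ones, while Lcp1 had 4.21 and 4.30 against 3.97 and 3.97.

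The GTPase and its regulators come first. Rac2, the Rac of blood cells, had levels of 2.89 and 2.65 in Tie-2-Etv2 embryo CD45- cells, against -3.32 and -3.38 in control ones. Its levels in yolk sac CD45- cells were 5.65 and 5.06 with Tie-2-Etv2, against -3.43 and -4.23 in controls. The groups lay far apart in both tissues: Rac2 was 69.4-fold higher in embryo cells (6.12 ± 0.27, adjusted p = 1.12e-06) and differed by 9.19 ± 0.27 in those of the yolk sac (adjusted p = 1.58e-08). In CD45+ cells Rac2 had 6.08 and 6.17 with Tie-2-Etv2 and 5.90 and 5.73 in control embryos. The yolk sac CD45+ levels were 6.39 and 6.27 with Tie-2-Etv2 and 5.87 and 5.64 in controls. There the Tie-2-Etv2 arrays were the higher ones in both tissues, but by 0.31 ± 0.27 for the embryo (adjusted p = 0.675) and 0.58 ± 0.27 for the yolk sac (adjusted p = 0.13). Its probe, at chr15:78391452-78391511 (mm9, minus strand), was spotted 10 times on each array, and 7 to 10 of these spots were used, with a standard deviation on an array of 0.0391 to 0.334.

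Vav1, a guanine nucleotide exchange factor that loads Rac with GTP below immune receptors, had 3.44 and 3.42 in Tie-2-Etv2 embryo CD45- cells, against -1.92 and -1.17 in control ones. Yolk sac CD45- cells held Vav1 at 6.02 and 5.66 with Tie-2-Etv2, against -1.75 and -2.02 in controls. The differences were 4.97 ± 0.23 in the embryo (adjusted p = 1.39e-06) and 7.72 ± 0.23 in the yolk sac (adjusted p = 1.74e-08). In CD45+ cells Vav1 had 6.32 and 6.36 with Tie-2-Etv2, against 6.52 and 6.39 in control embryos, and 6.21 and 6.16 with Tie-2-Etv2, against 6.20 and 6.07 in control yolk sacs. Those groups were close together and overlapped in the yolk sac, and neither difference passed the test. A second Vav1 probe gave differences of 5.29 ± 0.36 in embryo and 7.48 ± 0.36 in yolk sac CD45- cells, in a fit over all probes.

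Dock2, an exchange factor for Rac in migrating leukocytes, had -3.10 and -3.01 in Tie-2-Etv2 embryo CD45- cells, against -6.60 and -6.09 in control ones, where neither array was well above background. With that background as the floor, Dock2 was at least 3.71-fold higher (adjusted p = 1.96e-05). In this bound, the lowest signal among probes well above background stands in on each array where it exceeds the gene's own signal. An adjusted p beside a bound, here and below, is limma's for the fitted difference, which uses the gene's own signal. The bound itself was not tested. In yolk sac CD45- cells Dock2 had -0.36 and -0.67 with Tie-2-Etv2, against -5.25 and -4.73 in controls, where 1 of 2 arrays was well above background, and the difference was 4.47 ± 0.22 (adjusted p = 4.66e-07). In CD45+ cells the Tie-2-Etv2 arrays were the lower ones, with 1.14 and 1.29 against 1.59 and 1.52 in control embryos, and 1.15 and 1.31 against 1.71 and 1.68 in control yolk sacs. Those differences were -0.34 ± 0.22 (adjusted p = 0.525) in the embryo and -0.47 ± 0.22 (adjusted p = 0.136) in the yolk sac. The second Dock2 probe, further 5' in the gene, stayed below that limit on each embryo CD45- array. In yolk sac CD45- cells it was well above background on both Tie-2-Etv2 arrays and on 0 of 2 control arrays, so no size is given for it.

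Of the member probes, 4 span more of the genome than their own 60 bases and read through in at least 1 frame without a stop codon. They are shown because each crosses an exon junction of the leukocyte gene, and because the Dock2 pair tests a gene at separate places. The Vav1 probe shown is the second one. The brighter Vav1 probe, which gave the Vav1 levels above, spans only its own 60 bases and is not shown. All positions are on mm9, the build of the array design, and the lower-case runs are 5' to 3' with no part marked.
Vav1 (chr17:57451288-57454690, plus strand): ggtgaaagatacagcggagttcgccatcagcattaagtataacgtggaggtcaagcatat
Dock2, brighter probe (chr11:34129586-34130706, minus strand): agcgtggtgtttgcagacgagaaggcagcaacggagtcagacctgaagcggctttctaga
Dock2, second probe (chr11:34502033-34503249, minus strand): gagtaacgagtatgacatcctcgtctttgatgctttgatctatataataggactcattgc
Fermt3 (chr19:7074257-7076292, minus strand): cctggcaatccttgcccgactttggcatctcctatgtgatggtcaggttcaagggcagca

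Arhgdib, which holds Rac and related GTPases inactive in the cytosol, was already well above background in control CD45- cells. It had 4.92 and 4.60 in Tie-2-Etv2 embryo CD45- cells, against 4.21 and 3.87 in control ones, a difference of 0.72 ± 0.25 that missed the threshold (adjusted p = 0.482). Its yolk sac CD45- levels were 6.67 and 6.11 with Tie-2-Etv2, against 4.61 and 4.29 in controls, and rose by 1.94 ± 0.25 (adjusted p = 0.000224). The Arhgdib arrays of the genotypes did not overlap in either tissue, but how often this holds among all genes was not counted. In CD45+ cells Arhgdib had 7.31 and 7.44 with Tie-2-Etv2 and 7.14 and 6.80 in control embryos. Yolk sac CD45+ cells had 7.38 and 7.18 with Tie-2-Etv2 and 7.22 and 6.75 in controls. Neither difference passed the test. A second Arhgdib probe gave smaller differences, 0.29 ± 0.25 in embryo and 1.30 ± 0.25 in yolk sac CD45- cells.

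Among the actin regulators, Was, which turns on the Arp2/3 complex that branches actin filaments, had 2.95 and 2.66 in Tie-2-Etv2 embryo CD45- cells, against -1.87 and -1.80 in control ones. Was stood in yolk sac CD45- cells at 5.47 and 4.88 with Tie-2-Etv2, against -0.43 and -0.79 in controls. It rose by 4.64 ± 0.22 in the embryo (adjusted p = 1.39e-06) and by 5.79 ± 0.22 in the yolk sac (adjusted p = 7.04e-08). In embryo CD45+ cells Was had 4.40 and 4.30 with Tie-2-Etv2 and 4.16 and 4.05 in controls, a difference of 0.24 ± 0.22 (adjusted p = 0.694). In yolk sac CD45+ cells it had 4.98 and 4.89 with Tie-2-Etv2 and 4.24 and 3.99 in controls, and rose by 0.82 ± 0.22 (adjusted p = 0.0142). That last call was lost on the yolk sac slide alone (adjusted p = 0.0502) and without Tie-2-Etv2 replicate 1, Tie-2-Etv2 replicate 2 or control replicate 2 (0.0534 to 0.0807). Over 17 alternatives its adjusted p ran between 0.0029 and 0.0807.

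Hcls1, the haematopoietic relative of cortactin that binds actin and Arp2/3, had 3.76 and 3.83 in Tie-2-Etv2 embryo CD45- cells, against 2.56 and 2.99 in control ones. Its rise of 1.02 ± 0.20 there (adjusted p = 0.0418) was the closest to the threshold among the genotype calls of the 10 genes. The call was lost with the replicate number as a block (adjusted p = 0.0534), on the embryo slide alone (adjusted p = 0.235), and without control replicate 1 or either Tie-2-Etv2 replicate (0.185 to 0.303). Its adjusted p ran between 0.0135 and 0.427 over 17 alternatives. Hcls1 levels in yolk sac CD45- cells were 5.80 and 5.44 with Tie-2-Etv2, against 2.85 and 2.62 in controls, and rose by 2.89 ± 0.20 (adjusted p = 5.15e-06). In CD45+ cells Hcls1 had 6.47 and 6.63 with Tie-2-Etv2 and 6.84 and 6.45 in control embryos, which overlap. In yolk sac CD45+ cells it had 6.42 and 6.49 with Tie-2-Etv2 and 6.61 and 6.52 in controls, a difference of -0.11 ± 0.20 (adjusted p = 0.723).

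Coro1a, coronin 1A, an actin-binding protein of leukocytes, had 4.06 and 3.82 in Tie-2-Etv2 embryo CD45- cells, against -0.22 and 0.22 in control ones. Coro1a levels in yolk sac CD45- cells were 6.82 and 6.23 with Tie-2-Etv2, against -0.32 and -0.41 in controls. It rose by 3.94 ± 0.24 in the embryo (adjusted p = 8.67e-06) and by 6.89 ± 0.24 in the yolk sac (adjusted p = 3.85e-08). In CD45+ cells Coro1a had 7.52 and 7.58 with Tie-2-Etv2 and 7.51 and 7.24 in control embryos. Yolk sac CD45+ cells had 7.60 and 7.47 with Tie-2-Etv2 and 7.54 and 7.18 in controls. Both differences were 0.18 ± 0.24.

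Lcp1, L-plastin, which bundles actin filaments, stood apart from the other genes. It had 4.40 and 4.63 in Tie-2-Etv2 embryo CD45- cells, against 4.05 and 4.33 in control ones, a difference of 0.32 ± 0.18 (adjusted p = 0.857). In yolk sac CD45- cells it had 4.21 and 4.30 with Tie-2-Etv2, against 3.97 and 3.97 in controls, a difference of 0.28 ± 0.18 (adjusted p = 0.239). Control CD45- cells thus already held Lcp1 well above background. In CD45+ cells Lcp1 had 6.76 and 6.74 with Tie-2-Etv2 and 6.88 and 6.52 in control embryos. The yolk sac CD45+ levels were 6.18 and 6.38 with Tie-2-Etv2 and 6.89 and 6.67 in controls, a difference of -0.50 ± 0.18 (adjusted p = 0.0561) with no overlap of arrays. That difference passed the threshold under 6 of 17 alternatives. The second Lcp1 probe gave 0.27 ± 0.18 in embryo CD45- cells, and 0.11 ± 0.18 (CD45-) and -0.58 ± 0.18 (CD45+) for the yolk sac.

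At the membrane, Plek, pleckstrin, a protein kinase C substrate of platelets and leukocytes, had 5.16 and 4.85 in Tie-2-Etv2 embryo CD45- cells, against -0.27 and -0.45 in control ones. Yolk sac CD45- cells held Plek at 7.29 and 6.93 with Tie-2-Etv2, against -1.46 and -1.23 in controls. It rose by 5.37 ± 0.27 in the embryo (adjusted p = 2.19e-06) and by 8.46 ± 0.27 in the yolk sac (adjusted p = 2.63e-08). In CD45+ cells Plek had 6.68 and 6.32 with Tie-2-Etv2 and 7.51 and 6.73 in control embryos. The yolk sac CD45+ levels were 6.71 and 6.36 with Tie-2-Etv2 and 6.86 and 6.66 in controls. Neither passed the test, with differences of -0.62 ± 0.27 (adjusted p = 0.296) and -0.22 ± 0.27 (adjusted p = 0.581).

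Fermt3, kindlin-3, which binds integrin tails and switches integrins on, had 3.25 and 3.07 in Tie-2-Etv2 embryo CD45- cells, against -1.65 and -1.78 in control ones. In yolk sac CD45- cells it had 5.76 and 5.28 with Tie-2-Etv2, against -1.85 and -1.84 in controls. It rose by 4.87 ± 0.18 in the embryo (adjusted p = 7.78e-07) and by 7.36 ± 0.18 in the yolk sac (adjusted p = 9.26e-09). In embryo CD45+ cells Fermt3 had 4.19 and 4.36 with Tie-2-Etv2 and 4.09 and 4.16 in controls. In yolk sac CD45+ cells it had 4.98 and 4.80 with Tie-2-Etv2 and 4.40 and 4.20 in controls, and rose by 0.59 ± 0.18 (adjusted p = 0.03). That call was lost on the yolk sac slide alone (adjusted p = 0.0757) and without either Tie-2-Etv2 replicate or control replicate 2 (0.0663 to 0.17). Its adjusted p ran between 0.015 and 0.17 over 17 alternatives.

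**Figure D2:**
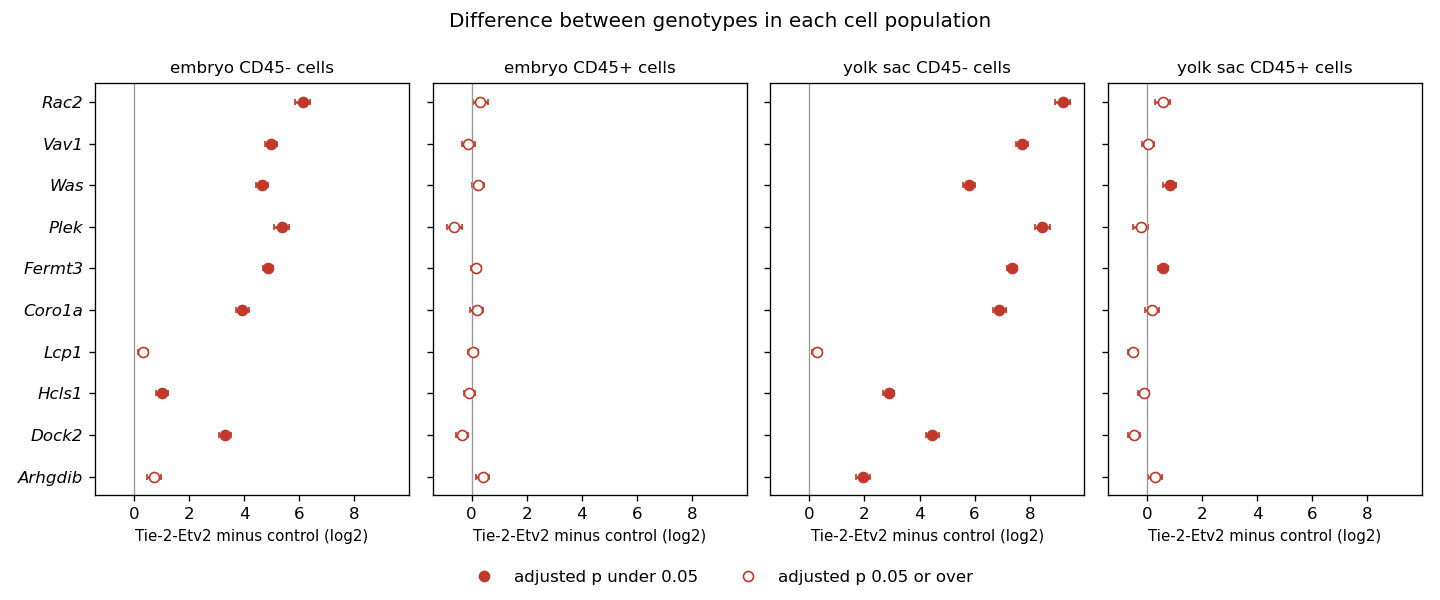
Each panel is a cell population, the x axis gives the Tie-2-Etv2 minus control difference (log2), and bars are standard errors of the fit. Filled points passed an adjusted p of 0.05: among CD45- cells 8 of 10 genes for the embryo and 9 for the yolk sac, and among CD45+ cells 0 and 2.

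The difference between genotypes was itself called larger in yolk sac than in embryo CD45- cells for 9 of 10 genes, where 15.9% of all genes were called. Dock2 is among them only by its fitted value: neither embryo control array was well above background, and only 1 of 2 yolk sac control arrays was. The size of its contrast is thus not known, and the call does not show a larger difference in the yolk sac. Plek differed most, by 3.09 ± 0.38 (adjusted p = 0.00146), followed by Rac2 with 3.07 ± 0.38 (adjusted p = 0.00137) and Coro1a with 2.96 ± 0.33 (adjusted p = 0.00107). Lcp1 was the exception, with -0.05 ± 0.25 (adjusted p = 0.926). The calls for Was (1.15 ± 0.30), Dock2 (1.18 ± 0.31) and Arhgdib (1.22 ± 0.36) were each lost without some of the single arrays, under quantile or detected-probe scaling, and with no filter on dim probes. Without 1 array their adjusted p reached at most 0.165. These differences are between slides, each of which holds both genotypes, and slide and tissue cannot be told apart. In CD45+ cells the corresponding yolk sac minus embryo difference passed the limma test for 0 of 10 genes, 0 of them also at an unadjusted p under 0.05, where 3.13% of all genes were called.

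For most of the genes the genotype difference was smaller in CD45+ than in CD45- cells. The CD45+ minus CD45- contrast of the genotype differences was lower for 7 of 10 genes in the embryo, where 1.14% of all genes were called, and for 9 of 10 in the yolk sac, where 18.4% were called. In the yolk sac it was -8.68 ± 0.38 for Plek and -8.62 ± 0.38 for Rac2 (both adjusted p = 5.68e-07). In the embryo Lcp1 (-0.28 ± 0.25), Hcls1 (-1.11 ± 0.29, adjusted p = 0.142) and Arhgdib (-0.31 ± 0.36) did not pass. In the yolk sac Lcp1 did not, with -0.78 ± 0.25 (adjusted p = 0.0584).

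Control cells show where the genes normally stand. All 10 were higher in CD45+ than in CD45- cells of control embryos, where 36.6% of all genes were called, and all 10 again in control yolk sacs, where 38.4% were. The median difference was 6.66 for embryos and 6.41 for yolk sacs, against 0.0789 and 0.197 over all genes. With Dock2 at its bound the embryo median was 6.22. Rac2 differed by 9.16 ± 0.27 in control embryos (adjusted p = 5.19e-09) and by 9.59 ± 0.27 in control yolk sacs (adjusted p = 3.83e-09). At the other end, Lcp1 differed by 2.51 ± 0.18 and 2.81 ± 0.18, and Arhgdib by 2.93 ± 0.25 and 2.54 ± 0.25, in control embryos and yolk sacs. Dock2 was at least 90.4-fold higher in CD45+ than in CD45- cells of control embryos. The gates occupy separate columns of each slide, so the gate cannot be told apart from the slide column.

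With Tie-2-Etv2 this gap between the gates was narrower. In embryos CD45+ cells were higher for all 10 genes, where 30.3% of all genes were called, with a median difference of 2.68. Dock2 had the widest gap, 4.27 ± 0.22 (adjusted p = 3.88e-07), and Fermt3 the narrowest, 1.11 ± 0.18 (adjusted p = 0.000957). In Tie-2-Etv2 yolk sacs CD45+ cells were higher for 5 of 10 genes, where 10.4% of all genes were called, with a median difference of 0.86. Lcp1 (2.03 ± 0.18, adjusted p = 5.68e-05) and Dock2 (1.74 ± 0.22, adjusted p = 0.000496) were called in each alternative run. Coro1a (1.01 ± 0.24), Rac2 (0.97 ± 0.27) and Hcls1 (0.83 ± 0.20) were called as well, but each was lost without CD45- replicate 2 or without either CD45+ replicate (adjusted p = 0.0693 to 0.309). Arhgdib differed by 0.89 ± 0.25, Vav1 by 0.34 ± 0.23, Was by -0.24 ± 0.22, Plek by -0.57 ± 0.27 and Fermt3 by -0.63 ± 0.18, none of which passed the test. Under alternatives Arhgdib passed in 8 of 16 (adjusted p between 0.00763 and 0.355) and Fermt3, lower in CD45+ cells, in 6 of 16 (0.0144 to 0.352).

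How far the genes went can be read by setting Tie-2-Etv2 CD45- cells directly against control CD45+ cells. In the embryo all 10 genes were lower in Tie-2-Etv2 CD45- cells, where 34.0% of all genes were called, by a median of -2.53. Fermt3 came closest, at -0.97 ± 0.18 (adjusted p = 0.00199), and Dock2 was farthest, at -4.61 ± 0.22 (adjusted p = 1.7e-07). In the yolk sac 4 of 10 were lower and 2 were higher, where 34.7% of all genes were called, and the median was -0.50. The genes that were higher than in control CD45+ cells were Fermt3, by 1.22 ± 0.18 (adjusted p = 0.000465), and Was, by 1.06 ± 0.22 (adjusted p = 0.00319). The lower ones were Lcp1 (-2.53 ± 0.18), Dock2 (-2.21 ± 0.22), Hcls1 (-0.94 ± 0.20) and Coro1a (-0.83 ± 0.24). Rac2 (-0.40 ± 0.27), Vav1 (-0.30 ± 0.23), Plek (0.35 ± 0.27) and Arhgdib (-0.60 ± 0.25) did not pass the test, which does not show that their levels were equal. The Coro1a call was lost without Tie-2-Etv2 CD45- replicate 2 or control CD45+ replicate 1 (adjusted p between 0.00465 and 0.152 over 16 alternatives). With the arrays of the compared groups only, the Coro1a call was lost too, as were those of Was (adjusted p = 0.0826) and Hcls1 (adjusted p = 0.0684). Arhgdib newly passed, as lower, under 3 of 16 alternatives. The comparisons of Tie-2-Etv2 CD45- with control CD45+ cells share their samples with those between genotypes and between gates.

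**Figure D3:**
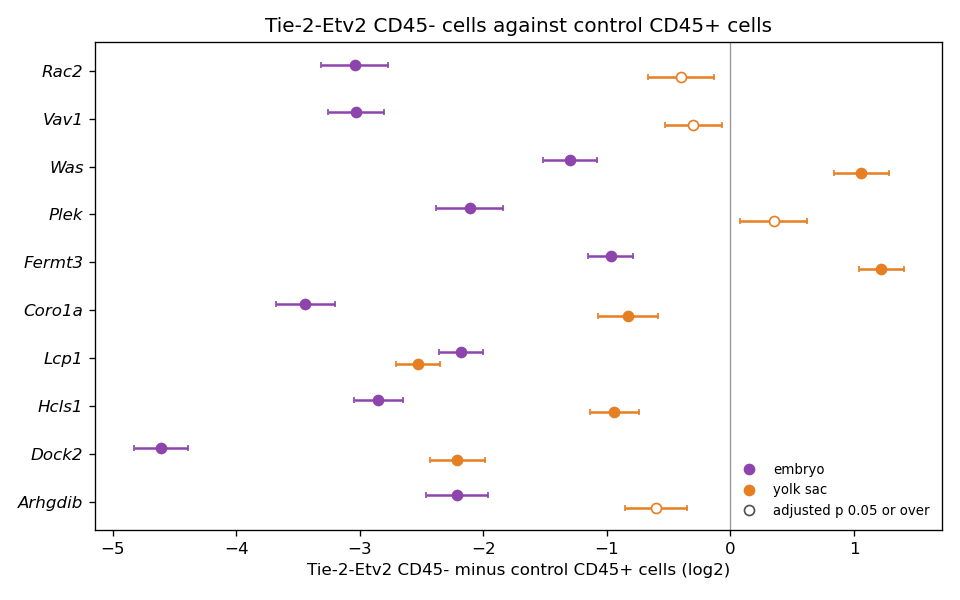
Tie-2-Etv2 CD45- minus control CD45+ cells (x axis, log2) for each gene, with standard errors of the fit, in the embryo (purple) and the yolk sac (orange). All embryo points lie below 0, from -0.97 for Fermt3 to -4.61 for Dock2, while in the yolk sac Fermt3 and Was lie above 0.

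Between control tissues the genes differed little in CD45+ cells, while some were called in CD45- cells. In control CD45- cells, yolk sac minus embryo, Was (1.22 ± 0.22, adjusted p = 0.00637) and Dock2 (adjusted p = 0.00412) were called higher and Plek (-0.99 ± 0.27, adjusted p = 0.0424) was lower, where 5.46% of all genes were called higher and 6.09% lower. The Dock2 call sets 1 of 2 yolk sac arrays above background against 0 of 2 embryo arrays, so it has no size, and it was lost with normexp background correction (adjusted p = 0.127). The Was call was lost without yolk sac replicate 1 and the Plek call without any 1 of the 4 arrays, their adjusted p running between 0.00186 and 0.0608 for Was and between 0.0102 and 0.202 for Plek. In control CD45+ cells 0 of 10 genes passed limma's test and 0 had an unadjusted p under 0.05, where 1.70% of all genes were called. Their differences there ran between -0.36 and 0.17.

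By correlation, which ignores the size of a change, the profile over the 8 groups was similar for all genes but Lcp1. The highest group still differed: Was and Fermt3 peaked in Tie-2-Etv2 yolk sac CD45- cells, and the other genes in a CD45+ group. The correlation of a gene's 8 group means with the mean of the other 9 genes was 0.998 for Coro1a, 0.997 for Vav1 and 0.995 for Rac2, and it was 0.767 for Lcp1. It lay between 0.939 and 0.973 for Was, Plek, Fermt3, Hcls1, Dock2 and Arhgdib. All genes share the same arrays, and control CD45- cells were the lowest groups for each gene. The span from lowest to highest group mean was 10.16 for Rac2 and 2.81 for Lcp1. Centred on its own mean, the average gene stood at -0.67 in Tie-2-Etv2 and at -4.20 in control embryo CD45- cells, and at 1.35 in Tie-2-Etv2 and at -4.15 in control yolk sac CD45- cells. In CD45+ cells it stood at 1.92 in Tie-2-Etv2 and 1.90 in control embryos, and at 1.98 in Tie-2-Etv2 and 1.86 in control yolk sacs.

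Of 3265 other genes whose group means span at least 4 on the log2 scale, the 10 most like this average profile were Arhgap30 (r = 0.9997), Arhgap9 (0.9975), Wdfy4 (0.9961), Lyz1 (0.9959), Adcy7 (0.9947), Sh3bp1 (0.994), Ebi3 (0.9938), Arhgap15 (0.9936), Lilr4b (0.9935) and Lyz2 (0.9931). Each r is Pearson's over the 8 group means and describes these arrays only. Some of these genes were dim in control CD45- cells: Arhgap30 and Arhgap15 were not well above background on any array there. The correlations rest partly on such values, whose exact level is not known. Arhgap30, for example, had mean levels of -1.19 in Tie-2-Etv2 and -6.63 in control embryo CD45- cells, and of 1.75 in Tie-2-Etv2 and -6.69 in control yolk sac CD45- cells. In CD45+ cells its mean was 2.49 in Tie-2-Etv2 and 2.51 in control embryos, and 2.72 in Tie-2-Etv2 and 2.64 in control yolk sacs.

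Few of the widely expressed relatives rose in CD45- cells. Of 17 listed relatives 16 were tested, all but Fermt1. In embryo CD45- cells 1 of 16 rose and 0 fell, with a median of -0.07, and in yolk sac CD45- cells 3 rose and 4 fell, with a median of 0.12. Over all genes 1.29% were called in embryo and 41.8% in yolk sac CD45- cells, and the relatives' yolk sac share was near the second. Other scalings gave 2 to 5 that rose and 4 to 6 that fell there. The median was 0.01 with quantile normalization, and its sign turned with detected-probe scaling (-0.20) and with normexp background correction (-0.03). Rac1, the Rac of most cells, differed by 0.04 ± 0.24 in embryo and 0.55 ± 0.24 (adjusted p = 0.0899) in yolk sac CD45- cells. Rac3 differed by -0.25 ± 0.22 in embryo and -0.51 ± 0.22 in yolk sac CD45- cells. Beside Vav1, Vav2 differed by -0.09 ± 0.27 and -0.02 ± 0.27 in embryo and yolk sac CD45- cells, while Vav3 had 0.35 ± 0.21 and rose in the yolk sac by 1.32 ± 0.21 (adjusted p = 0.000628). Of these 4 relatives Vav3 alone passed the test in CD45- cells.

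Fermt2, kindlin-2, the integrin activator of adherent cells, fell by 2.73 ± 0.45 in Tie-2-Etv2 yolk sac CD45- cells (adjusted p = 0.000909), where Fermt3 rose. Its embryo CD45- difference was -0.49 ± 0.45 (adjusted p = 0.992). Pls3, the plastin of non-blood cells, fell by 2.59 ± 0.28 in yolk sac CD45- cells (adjusted p = 7.81e-05), beside an Lcp1 that did not pass the test. Pls1, the plastin of epithelial brush borders, rose there by 2.12 ± 0.71 (adjusted p = 0.0349), a call that detected-probe scaling ended. Wasl (N-WASP) fell by 0.85 ± 0.23 and Dock1 by 0.65 ± 0.19 in yolk sac CD45- cells, and Plek2 rose by 1.29 ± 0.32, as it did in embryo CD45- cells by 1.56 ± 0.32 (adjusted p = 0.0439). Coro1b (0.30 ± 0.19), Coro1c (-0.28 ± 0.18), Cttn (0.41 ± 0.22), Dock5 (1.40 ± 0.57), Arhgdia (0.00 ± 0.19) and Arhgdig (0.23 ± 0.97, not well above background in either genotype) did not pass in yolk sac CD45- cells.

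In CD45+ cells several relatives passed the test. Dock5, beside a Dock2 that did not pass, rose by 3.81 ± 0.57 in embryo (adjusted p = 0.0052) and by 5.01 ± 0.57 in yolk sac CD45+ cells (adjusted p = 0.000128). In yolk sac CD45+ cells 3 relatives rose and 6 fell, where 32.5% of all genes were called, and in embryo CD45+ cells 1 rose and 0 fell, where 3.01% were. Rac3 fell by 2.19 ± 0.22 (adjusted p = 6.4e-05), Wasl by 1.77 ± 0.23 and Pls3 by 1.70 ± 0.28 in yolk sac CD45+ cells. In control cells Fermt2 was lower in the CD45+ gate by 4.60 ± 0.45 in the embryo and by 5.15 ± 0.45 in the yolk sac.

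**Figure D4:**
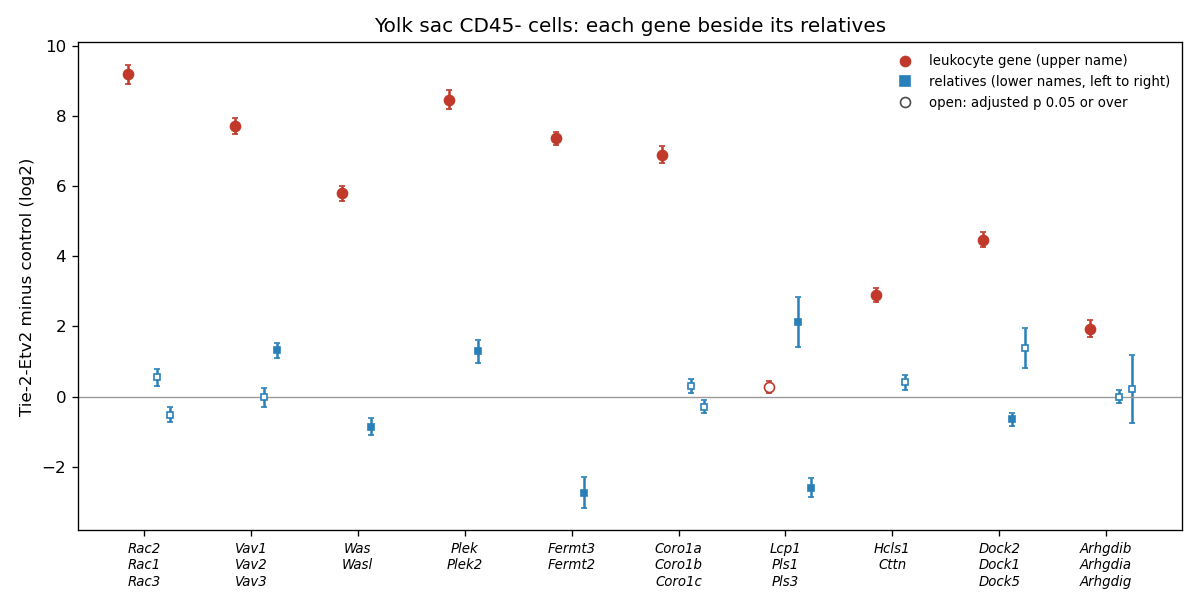
Tie-2-Etv2 minus control difference in yolk sac CD45- cells (y axis, log2) for each leukocyte gene (red circles) and its tested relatives (blue squares, in the order of the lower names), with standard errors of the fit. Filled symbols passed an adjusted p of 0.05. Red points reach 9.19 for Rac2, whereas relatives lie between -2.73 for Fermt2 and 2.12 for Pls1.

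The pathways around these genes were described with 4 lists, which were chosen with earlier results of these data known. Their counts stand beside the 1.29% of all genes called in embryo CD45-, 41.8% in yolk sac CD45-, 3.01% in embryo CD45+ and 32.5% in yolk sac CD45+ cells. Of 36 genes of Rac signalling in blood cells, 12 rose and 0 fell in embryo CD45- cells, and 25 rose and 2 fell in yolk sac CD45- cells, with medians of 0.49 and 2.02. Btk, a kinase of myeloid and B cells, differed by 5.27 ± 0.21 in embryo and 8.63 ± 0.21 in yolk sac CD45- cells. The GTPase-activating proteins Arhgap30 and Arhgap15 were not well above background in control CD45- cells, and were at least 126-fold and at least 77.4-fold higher with Tie-2-Etv2 in the yolk sac (adjusted p = 3.37e-08 and 2.8e-08). Cdc42, the ubiquitous GTPase that activates Was, differed by -0.07 ± 0.16 in yolk sac CD45- cells, and Swap70 by -0.14 ± 0.18. In CD45+ cells 3 rose and 0 fell in the embryo, and 7 rose and 8 fell in the yolk sac.

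Of 36 genes of WASP, WAVE and Arp2/3 actin assembly, 4 rose and 0 fell in embryo CD45- cells, and 16 rose and 4 fell in yolk sac CD45- cells, with medians of -0.05 and 0.39. With quantile normalization or detected-probe scaling 9 rose and 7 fell in yolk sac CD45- cells, a share near the 41.8% called over all genes in the main setting. The largest calls were Pstpip1, an adaptor that binds Was, at least 159-fold higher in yolk sac CD45- cells (adjusted p = 1.33e-07), and the leukocyte myosins Myo1f (6.22 ± 0.35) and Myo1g (6.14 ± 0.27). Actb, cytoplasmic actin itself, differed by -0.05 ± 0.21 in embryo and -0.01 ± 0.21 in yolk sac CD45- cells, and Tagln2 by -0.07 ± 0.32 and -0.02 ± 0.32. In CD45+ cells 1 rose and 1 fell in the embryo, and 3 rose and 13 fell in the yolk sac, among them Myo1f by 1.05 ± 0.35 (adjusted p = 0.0412).

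Of 20 genes of integrin activation, 5 rose and 0 fell in embryo CD45- cells, and 17 rose and 2 fell in yolk sac CD45- cells, with medians of 0.54 and 3.11. Fyb, an adaptor between immune receptors and integrins, was at least 61.1-fold higher in embryo and at least 307-fold higher in yolk sac CD45- cells (adjusted p = 3.67e-05 and 3.75e-07). Itgb3, the platelet integrin chain, rose in all 4 populations, by 4.45 ± 0.46 and 5.47 ± 0.46 in CD45- cells of embryo and yolk sac, and by 2.94 ± 0.46 and 5.17 ± 0.46 in their CD45+ cells. Rassf5 differed by 0.74 ± 0.17 (adjusted p = 0.0911) in embryo and rose by 5.48 ± 0.17 (adjusted p = 2.32e-08) in yolk sac CD45- cells. Itgam, the myeloid integrin chain, differed by 0.18 ± 0.29 in yolk sac CD45- cells, and Sharpin rose by 0.76 ± 0.17. In CD45+ cells 3 of the 20 rose and 0 fell in the embryo, and 7 rose and 2 fell in the yolk sac.

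Rac2 is also a switch of the phagocyte NADPH oxidase, whose 6 listed genes had medians of 0.53 in embryo and 2.65 in yolk sac CD45- cells. In embryo cells 2 rose, in yolk sac cells 5, and 0 fell in either. Ncf1 differed by 4.33 ± 0.21 and Ncf4 by 3.75 ± 0.35 in yolk sac CD45- cells, and Cyba by 0.97 ± 0.31 (adjusted p = 0.0288). Unlike Rac2, 3 of the 6 fell in yolk sac CD45+ cells, Ncf1 by 1.36 ± 0.21 (adjusted p = 0.000726) and Cyba by 1.16 ± 0.31 (adjusted p = 0.0154) among them. In embryo CD45+ cells limma called 0 of 6, and 0 had an unadjusted p under 0.05.

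**Figure D5:**
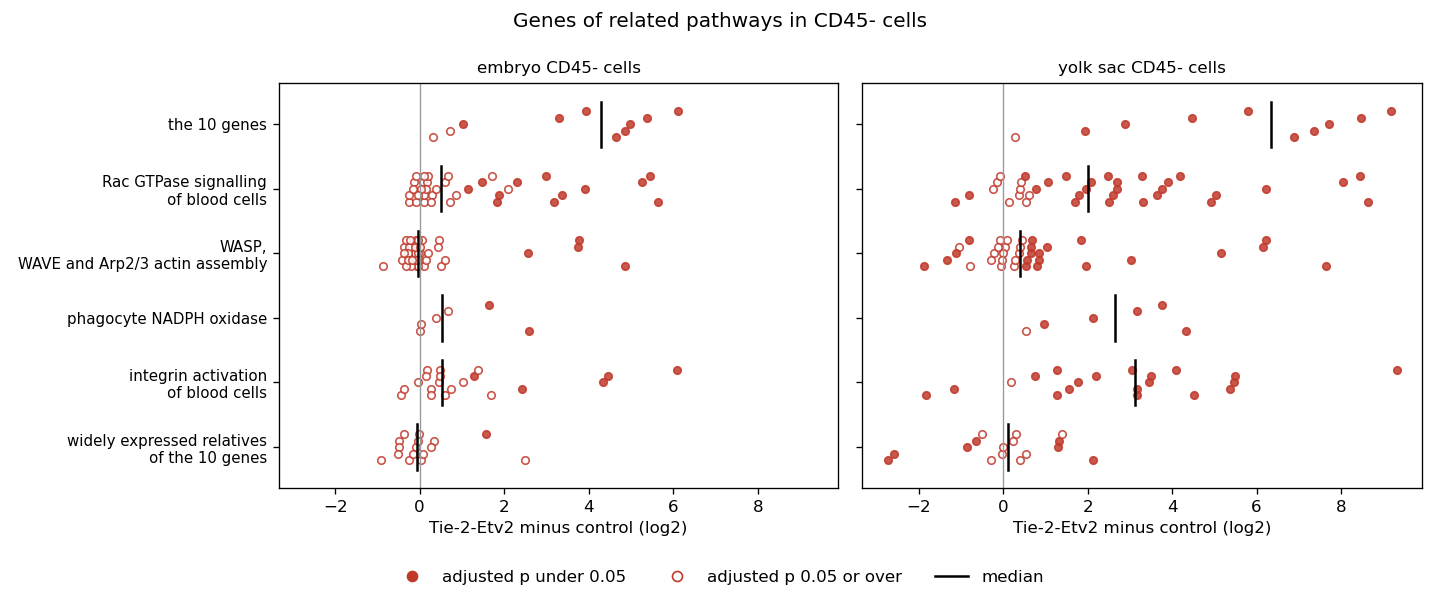
Tie-2-Etv2 minus control differences (x axis, log2) of the 10 genes, the pathway lists and the relatives in CD45- cells of the embryo (left) and the yolk sac (right). Points are genes, filled where the adjusted p was under 0.05, and black bars are medians. The median of the 10 genes is 4.29 on the left and 6.34 on the right, and that of the relatives is -0.07 and 0.12.

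Markers of some blood cell types moved with these genes in CD45- cells. The shares of all genes called, 1.29% in embryo and 41.8% in yolk sac CD45- cells, stand beside their counts too. A summed level adds linear levels, with the array's 75th percentile as 1. Of 8 leukocyte surface markers, 3 rose in embryo and 8 in yolk sac CD45- cells. Their sum was 7.42 to 7.84 in Tie-2-Etv2 and 2.91 to 3.57 in control embryo CD45- cells, and 30.6 to 47.2 in Tie-2-Etv2 and 2.22 to 2.57 in control yolk sac CD45- cells. In control CD45+ cells it was 139 to 175 for embryos and 113 to 155 for yolk sacs. Ptprc and Cd53 were not well above background in embryo CD45- cells of either genotype. In yolk sac CD45- cells Ptprc, the gene of the gate, was at least 3.33-fold higher with Tie-2-Etv2 (adjusted p = 0.000809), at a mean level of -3.18, against 3.35 in control CD45+ cells.

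Megakaryocyte and platelet markers rose for 8 of 12 in embryo and 11 of 12 in yolk sac CD45- cells. Their sum was 243 to 367 in Tie-2-Etv2 and 8.41 to 12.8 in control embryo CD45- cells, and 838 to 1130 in Tie-2-Etv2 and 6.85 to 9.07 in control yolk sac CD45- cells. Granulocyte and mast cell markers rose for 1 of 9 in embryo and 4 of 9 in yolk sac CD45- cells, their yolk sac sum being 87.4 to 108 with Tie-2-Etv2 and 6.82 to 6.99 in controls. Their yolk sac count was near the 41.8% of all genes called there. Few macrophage markers rose: 0 of 12 rose and 1 fell in embryo CD45- cells, and 1 rose and 3 fell in yolk sac CD45- cells. Their yolk sac share of calls was not above that of all genes. Their sum was 9.2 to 19.0 in Tie-2-Etv2 and 34.3 to 39.9 in control yolk sac CD45- cells. Of these markers Cx3cr1, C1qa, C1qc and Timd4 were not well above background in control yolk sac CD45- cells, so a fall of theirs could not be seen there. The part of any cell type in the results on the 10 genes was not tested.

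Few genes of the other marker lists rose in CD45- cells. Endothelial markers fell for 8 of 12 in the yolk sac, and limma called 0 of 12 in the embryo, where 1 had an unadjusted p under 0.05. Erythroid markers rose for 2 of 10 and fell for 1 in the yolk sac, mesenchymal and mural markers fell for 4 of 10, lymphoid markers for 1 of 7 and yolk sac endoderm markers for 1 of 8. With 41.8% of all genes called there, the mesenchymal share was near this background, and the erythroid, lymphoid and endoderm shares were below it. In embryo CD45- cells limma called 0 genes of these 4 lists, and 1 erythroid gene and 0 of the others had an unadjusted p under 0.05.

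In CD45+ cells marker levels changed while most of the 10 genes did not pass the test, with 32.5% of all genes called in the yolk sac and 3.01% in the embryo. Macrophage markers fell for 11 of 12 in the yolk sac, to a sum of 130 to 154 with Tie-2-Etv2, against 1410 to 1800 in controls, and for 1 of 12 in the embryo. Granulocyte and mast cell markers rose for 7 of 9 in yolk sac and 3 of 9 in embryo CD45+ cells. Megakaryocyte and platelet markers rose for 9 of 12 and fell for 3 in yolk sac CD45+ cells, and rose for 7 in the embryo. Their summed level was nevertheless lower, at 226 to 329 with Tie-2-Etv2, against 467 to 654 in control yolk sacs, and at 203 to 230, against 283 to 359 in control embryos. Endothelial markers rose for 10 of 12 in yolk sac and 6 of 12 in embryo CD45+ cells. Leukocyte surface markers rose for 3 of 8 and fell for 3 in the yolk sac, and rose for 1 in the embryo. In yolk sac CD45+ cells erythroid markers fell for 1 of 10, lymphoid markers rose for 2 of 7 and fell for 1, and mesenchymal and mural markers rose for 1 of 10 and fell for 3. For yolk sac endoderm markers limma called 0 of 8 there, and 0 had an unadjusted p under 0.05.

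The start regions of the genes were read from RefSeq promoter entries on GRCm38.p6, 250 bases before each annotated start. Of the 10 genes 9 matched, with 13 entries. Vav1, Was, Plek and Fermt3 are shown as genes with a single entry and the largest rises in yolk sac CD45- cells, and both starts of Lcp1 as the gene that did not rise. Capitals mark GGAA, the core that ETS-family factors such as Etv2 are known to bind, and its complement TTCC.
Vav1 (chr17:57278850-57279099, plus strand): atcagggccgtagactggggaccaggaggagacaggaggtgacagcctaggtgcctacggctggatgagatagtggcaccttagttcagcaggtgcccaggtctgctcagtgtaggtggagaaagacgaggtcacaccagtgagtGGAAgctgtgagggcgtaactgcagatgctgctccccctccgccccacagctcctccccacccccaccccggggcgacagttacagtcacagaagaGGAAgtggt
Was (chrX:8090492-8090741, minus strand): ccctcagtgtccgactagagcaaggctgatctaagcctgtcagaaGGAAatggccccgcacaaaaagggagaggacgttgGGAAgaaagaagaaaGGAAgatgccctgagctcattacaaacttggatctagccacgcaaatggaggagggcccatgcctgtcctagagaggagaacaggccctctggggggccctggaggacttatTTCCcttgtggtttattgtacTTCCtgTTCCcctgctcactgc
Plek (chr11:17008719-17008968, minus strand): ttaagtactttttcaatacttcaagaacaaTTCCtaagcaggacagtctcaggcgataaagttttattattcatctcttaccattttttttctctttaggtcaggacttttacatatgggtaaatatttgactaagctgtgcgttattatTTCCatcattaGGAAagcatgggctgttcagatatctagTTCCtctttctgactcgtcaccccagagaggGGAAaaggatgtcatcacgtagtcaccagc
Fermt3 (chr19:7019470-7019719, minus strand): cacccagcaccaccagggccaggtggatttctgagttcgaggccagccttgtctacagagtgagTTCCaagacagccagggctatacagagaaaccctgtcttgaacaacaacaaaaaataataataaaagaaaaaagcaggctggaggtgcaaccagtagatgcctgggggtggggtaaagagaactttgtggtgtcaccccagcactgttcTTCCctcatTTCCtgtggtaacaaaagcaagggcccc
Lcp1, upstream start (chr14:75130873-75131122, plus strand): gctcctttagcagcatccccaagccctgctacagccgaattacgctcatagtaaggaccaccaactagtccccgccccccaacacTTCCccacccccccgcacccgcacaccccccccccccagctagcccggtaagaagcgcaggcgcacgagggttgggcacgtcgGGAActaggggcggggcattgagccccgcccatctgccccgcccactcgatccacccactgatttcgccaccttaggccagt
Lcp1, downstream start (chr14:75136175-75136424, plus strand): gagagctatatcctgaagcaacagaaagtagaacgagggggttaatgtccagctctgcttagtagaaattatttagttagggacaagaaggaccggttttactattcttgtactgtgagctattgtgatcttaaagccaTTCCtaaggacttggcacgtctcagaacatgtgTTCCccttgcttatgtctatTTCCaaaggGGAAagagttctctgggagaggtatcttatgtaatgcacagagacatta

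On both strands together Vav1 had 2 matches to GGAA, Was 6, Plek 5, Fermt3 3, and the Lcp1 starts 2 and 4. Of the 13 entries 12 held at least 1 match, as did 93.4% of 32851 promoter entries of the same length, whose median was 3 matches. The longer AGGAAG, which contains GGAA, was in 6 of the 13 entries, those of Vav1, Was, Hcls1 and Dock2 and 1 each of Coro1a and Arhgdib, and in 29.5% of all entries. CGGAAG, which also contains GGAA, was in 1 of the 13, that of Dock2, and in 13.6% of all entries. Neither of these longer motifs was found in the Lcp1, Plek or Fermt3 windows. A match describes the letters of the window only.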

How the data were processed

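Gene expression was measured on 16 arrays of VE-cadherin-positive mouse cells, grouped by the sample titles and genotype labels. The authors deposited spot intensities as scanner output, written by Agilent Feature Extraction 10.7 according to the headers and the submitters' processing notes. The processed intensity is background-subtracted within an array and not normalized between arrays. The authors also deposited a table of log2 values. Set against the scanner files its array differences correlated at 1.000000, each probe being centred on its median within every tissue and gate. Its column medians lay between -0.183 and 0.175. It served as an alternative for the genotype comparisons.

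Control spots and outlier spots were left out, and replicate spots averaged. Levels were log2 processed intensity minus the array's 75th percentile. Probes entered when at least 1 group had both arrays well above background (34126 probes), and the brightest probe stood for a gene. Probes were named with the RefSeq gene table (assembly GRCm38.p6), 26582 by accession, 2602 by symbol, 39 by other accessions and 474 by synonym, and 25984 had no symbol.

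One limma 3.58.1 fit (R 4.3.3) on 8 group means, with 8 residual and 2.29 prior degrees of freedom, gave all tests, two-sided, with Benjamini-Hochberg adjustment at 0.05. It was tested on simulated data. Same-numbered replicates of compared groups had deviations correlating between -0.0139 and 0.385, and no label ties them, so no block was used. With 2 arrays a group, the number of arrays limits precision. Alternatives were other scalings, background corrections, filters, probe rules, spread estimates, a replicate block, a slide alone and leaving out each array.

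The 10 genes, the pathway and relative lists and the marker lists were chosen with earlier results of these data known. From each pathway list the text names the 3 largest calls and the 2 smallest differences in yolk sac CD45- cells, and of the relatives all. The genes most like the average profile were the 10 with the highest correlation. Calls named as lost or gained under alternatives, Ptprc, Cd53 and Etv2 were added to these. A few genes that these rules name are not reported here. Python 3.11.15, pandas 2.3.3, numpy 2.4.6 and matplotlib 3.10.9 prepared tables and figures.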

Additional observations from a re-analysis of the deposited data

Results flagged for a closer look

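The genotype difference (Tie-2-Etv2 minus control) of most of the 10 genes differed between tissues or gates by a test of the difference itself in the limma fit. Values are log2. In CD45- cells, yolk sac minus embryo, the fitted contrast was 3.07 for Rac2, 2.75 for Vav1, 1.15 for Was, 3.09 for Plek, 2.49 for Fermt3, 2.96 for Coro1a, 1.87 for Hcls1, 1.18 for Dock2 and 1.22 for Arhgdib. The calls for Was, Dock2 and Arhgdib were lost under several alternatives, among them quantile normalization, detected-probe scaling and no filter on dim probes. The true size of the Dock2 contrast is not known, since its embryo control CD45- arrays were not well above background. Its call does not show a larger difference in the yolk sac. The contrast is between slides, and tissue and slide cannot be told apart.

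In the embryo, CD45+ minus CD45- cells, the genotype difference was -5.81 for Rac2, -5.09 for Vav1, -4.40 for Was, -5.98 for Plek, -4.73 for Fermt3, -3.76 for Coro1a and -3.63 for Dock2, whose fitted size uses those dim control arrays. In the yolk sac the same contrast was -8.62 for Rac2, -7.68 for Vav1, -4.97 for Was, -8.68 for Plek, -6.77 for Fermt3, -6.72 for Coro1a, -3 for Hcls1, -4.94 for Dock2 and -1.65 for Arhgdib. Both contrasts set the genotype difference of one gate against that of the other gate on the same slide.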

How the results depend on the processing

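Of 2720 values of single genes under alternatives, 2613 kept their direction and side of the threshold, 79 kept their direction but no longer passed, 28 newly passed and 0 changed sign after a call. With the replicate number as a block, which no label supports, each count of called genes stayed within 1.5 times the value without the block: 7 of the 10 were called in embryo CD45- cells, where Hcls1 was lost, 7 between the gates of Tie-2-Etv2 yolk sacs and 7 between Tie-2-Etv2 CD45- and control CD45+ yolk sac cells. Detected-probe scaling moved the median of all genes by -0.32 in the yolk sac CD45- genotype comparison, with 4063 genes higher and 5619 lower, against 6406 and 3882.

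The following counts moved by over 1.5 times; where fewer arrays or more probes entered, the test itself changed, and otherwise the cause was not tested. With the arrays of the compared groups only, the genotype comparison called 134 of all genes in embryo CD45- and 4496 in yolk sac CD45+ cells. In embryo CD45+ cells limma then called 0 (2889 at an unadjusted p under 0.05). The gates differed for 5268 in control embryos, and the control tissues for 0 in CD45+ cells (1718 unadjusted). Tie-2-Etv2 CD45- against control CD45+ yolk sac cells gave 4740. The yolk sac minus embryo contrast in CD45+ cells gave 0 (3610 unadjusted) and the gate contrast in the embryo 166. Of the 10 genes this setting called 0 by genotype in yolk sac CD45+ cells (3 unadjusted), 2 between the gates of Tie-2-Etv2 yolk sacs, 1 between control CD45- tissues and 3 between Tie-2-Etv2 CD45- and control CD45+ yolk sac cells. A slide alone gave 407 genes by genotype in embryo CD45+ cells and 166 for the gate contrast in the embryo, and of the 10 genes 0 by genotype in yolk sac CD45+ cells (3 unadjusted) and 3 between the gates of Tie-2-Etv2 yolk sacs. Normexp gave 1126 by genotype in embryo CD45+ cells and 126 between control CD45+ tissues, and of the 10 genes 5 by genotype in yolk sac CD45+ cells and 1 between control CD45- tissues. Without the filter on dim probes the yolk sac minus embryo contrast called 2525 in CD45- and 321 in CD45+ cells and the control CD45+ tissues differed for 222, and of the 10 genes 1 was called by genotype in yolk sac CD45+ cells and 3 between the gates of Tie-2-Etv2 yolk sacs.

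Leaving out 1 array leaves a group with a lone sample, assumed to vary like the other groups. Counts over all genes then ran between 285 and 925 for genotype in embryo CD45+, 6582 and 8900 in yolk sac CD45- and 5262 and 7494 in yolk sac CD45+ cells. They ran between 1559 and 1880 for the gates of Tie-2-Etv2 yolk sacs, 873 and 2497 for control CD45- tissues and 273 and 874 for control CD45+ tissues. For the yolk sac minus embryo contrast they ran between 1497 and 3698 in CD45- and 88 and 1591 in CD45+ cells, and for the gate contrast in the embryo between 177 and 393. Of the 10 genes between 0 and 2 were called by genotype in yolk sac CD45+ cells, 2 and 6 between the gates of Tie-2-Etv2 yolk sacs, and 1 and 2 between control CD45- tissues. Dim control signals leave the sizes of the Dock2 differences in embryo CD45- cells as bounds.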
